A study of Mus musculus with 21 samples.

Results

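Genes of insulin signalling and glucose handling, 8 in all, were followed across every group of a mouse feeding study: Slc2a4, Slc2a1, Irs1, Pik3r1, Grb10, Grb14, Socs3 and Pfkfb3. They were taken by symbol from the platform annotation, with the brightest single-symbol probe standing for each gene, and all 8 of the 8 were measured, among 16248 genes in all. RNA from epididymal fat, the visceral depot beside the testis, was hybridised to 21 whole-transcript arrays, 3 for each of 7 groups. All mice were male C57BL/6J, arrived at 4 weeks of age, spent 1 week on chow and were then fed their diet for 12 weeks. The ND diet was a normal one in which fat gave 10% of the energy; in the HFD diet fat gave 40%. For 5 further groups the high-fat diet held an addition. By weight this was 0.3% Bacilus Coagulans (spelled as in the labels) in BC, 0.3% steamed grain in SMG, 0.3% fermented mixed grain in L_FMG and 0.9% in H_FMG. The addition fed to the RMG group is not described in the protocols used here. No group carried a genetic change. The protocols give 10 mice for ND, HFD, BC and SMG, and no source used here says how mice were picked for the arrays. Arrays are named below by group and by the number in their title. The arrays of a group were treated as separate animals, which the labels do not establish, so p-values measure only the spread between these samples.

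Insulin binds a receptor kinase at the fat cell surface, the receptor phosphorylates docking proteins such as Irs1, and these recruit phosphatidylinositol 3-kinase, whose regulatory subunit is encoded by Pik3r1. The signal then runs through the kinase Akt and moves vesicles that carry the transporter encoded by Slc2a4 to the plasma membrane, where it lets glucose in. Slc2a1 encodes the transporter that supplies basal glucose uptake in many cell types, Grb10, Grb14 and Socs3 restrain the receptor or its substrates, and Pfkfb3 makes the sugar phosphate that activates glycolysis. These are background, and the arrays measure only mRNA.

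Values are log2 levels as deposited, where a difference of 1 is a doubling of the signal. A change is a difference of group means, given with its standard error (SE) from a limma fit over all 21 arrays. A gene was called where its p, adjusted by the Benjamini-Hochberg method over the 16248 genes, was under 0.05. Levels of different genes come from different probes and are not set against each other. Array medians ran from 4.23 to 4.39, and arrays correlated with each other at r between 0.967 and 0.993. The adipocyte markers Adipoq and Lep were among the brightest genes in every group, and 11 markers of the epididymis duct, which adjoins the depot, were dim. The number of arrays limits the precision of every comparison. One array stood apart for these genes: ND 9 was the lowest of its group for all 8. HFD 6 was the lowest of its group for 6 of them. Over all genes too ND 9 lay farthest from its group mean. Its mean absolute deviation was 0.205, with L_FMG 10 next at 0.156.

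Promoter windows are shown for the 3 called genes that have a RefSeq start in the table used, since the results turn on them. Each window is the 250 bases before an annotated start in GRCm38.p6, credited to RefSeq and printed on the gene's strand. Capitals mark matches to ACGTG, to CACGTG or to GGGCGG on either strand. ACGTG is the core of the hypoxia response element, CACGTG is an E-box of the kind bound by carbohydrate response and clock factors, and GGGCGG is the core of the GC box. CACGTG holds ACGTG on both strands, so the first motif overlaps the second. Of the 8 genes 7 had windows, 10 in all, and Slc2a4 had no entry. Slc2a1 lies on chromosome 4 on the plus strand (chr4:119108495-119108744), Irs1 on chromosome 1 on the minus strand (chr1:82291440-82291689), and Pfkfb3 on chromosome 2 on the minus strand, with start 1 at chr2:11553930-11554179 and start 2 at chr2:11502091-11502340.
Slc2a1: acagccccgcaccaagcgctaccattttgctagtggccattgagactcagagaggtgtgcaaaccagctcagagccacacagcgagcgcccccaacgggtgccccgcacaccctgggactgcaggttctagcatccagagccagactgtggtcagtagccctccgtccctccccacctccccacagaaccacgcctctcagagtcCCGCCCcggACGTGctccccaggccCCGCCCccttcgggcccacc
Irs1: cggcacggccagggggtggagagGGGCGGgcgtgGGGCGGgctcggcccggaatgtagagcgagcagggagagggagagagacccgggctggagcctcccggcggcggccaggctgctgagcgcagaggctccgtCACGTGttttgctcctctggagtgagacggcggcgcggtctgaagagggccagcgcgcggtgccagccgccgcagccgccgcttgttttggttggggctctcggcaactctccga
Pfkfb3 start 1: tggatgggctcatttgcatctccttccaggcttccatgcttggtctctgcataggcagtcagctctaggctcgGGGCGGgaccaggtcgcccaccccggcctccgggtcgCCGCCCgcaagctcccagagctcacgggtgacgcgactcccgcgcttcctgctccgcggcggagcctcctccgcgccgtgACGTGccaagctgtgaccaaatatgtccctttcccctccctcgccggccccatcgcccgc
Pfkfb3 start 2: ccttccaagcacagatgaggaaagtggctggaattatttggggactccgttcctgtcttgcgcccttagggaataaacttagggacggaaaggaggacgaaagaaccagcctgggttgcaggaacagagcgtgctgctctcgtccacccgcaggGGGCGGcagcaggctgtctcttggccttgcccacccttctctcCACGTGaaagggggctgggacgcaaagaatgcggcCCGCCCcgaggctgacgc
ACGTG occurred in all 4 of these windows, against 16.6% of 32817 windows of this length. The longer CACGTG was in the Irs1 window and in that of the second Pfkfb3 start, against 6.02% of all windows. GGGCGG occurred 2 times in each of the 4, and 32.7% of all windows held any match to it. It was not particular to them. It occurred 4 times before Pik3r1 start 1, 5 before Grb10 start 1, 5 before Grb14 and 1 before Socs3. The second windows of Pik3r1 and Grb10 held none. None of the 6 other windows, which belong to Pik3r1, Grb10, Grb14 and Socs3, held ACGTG. The 4 windows belong to 3 genes shown because they were called in these data, so the shares are no test of a motif. Slc2a1 was called in the opposite direction to Irs1 and Pfkfb3. These are matches of letters and say nothing of binding in this tissue.

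Slc2a4, the insulin-responsive transporter of fat and muscle, was lower in the RMG group than on the normal diet. It read 7.32, 7.34 and 6.57 in ND and 5.97, 6.12 and 6.64 in RMG. The HFD arrays gave 6.89, 6.07 and 6.79, the BC arrays 6.80, 6.50 and 6.63, and the SMG arrays 6.31, 6.75 and 6.90. Fermented grain gave 6.89, 6.88 and 6.91 at the low dose and 6.94, 7.05 and 6.93 at the high dose. The 6 fermented-grain arrays thus lay within a narrow band, while ND and HFD each had 1 array well below the other 2, and ND and RMG overlapped through ND 9. Slc2a4 fell by 0.83 ± 0.21 (SE) in RMG relative to ND, a level 1.78-fold lower (limma adjusted p = 0.0114). Against ND the HFD mean differed by -0.49 ± 0.21, which did not pass (limma adjusted p = 0.156).

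Slc2a1, the basal glucose transporter, was higher on the high-fat diet. Its ND arrays read 6.20, 6.20 and 5.91, and its HFD arrays 6.53, 6.82 and 6.51. RMG gave 6.82, 6.82 and 6.71, BC 6.25, 6.48 and 6.57, and SMG 6.76, 6.63 and 6.12. At the low dose of fermented grain the values were 6.36, 6.34 and 6.04, and at the high dose 6.48, 6.13 and 6.21. Every HFD, RMG and BC array lay above every ND array, while SMG and both fermented-grain groups overlapped with ND. Slc2a1 rose by 0.52 ± 0.15 (SE) in HFD relative to ND, 1.43-fold (limma adjusted p = 0.0356), and by 0.68 ± 0.15 in RMG, 1.60-fold (limma adjusted p = 0.00391). A second Slc2a1 probe, dim at a mean level of 3.91, gave 0.080 ± 0.12 in HFD and 0.036 ± 0.12 in RMG, and neither passed (limma adjusted p = 0.709 and 0.872). The rise is therefore seen with the brighter probe alone.

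**Figure D1:**
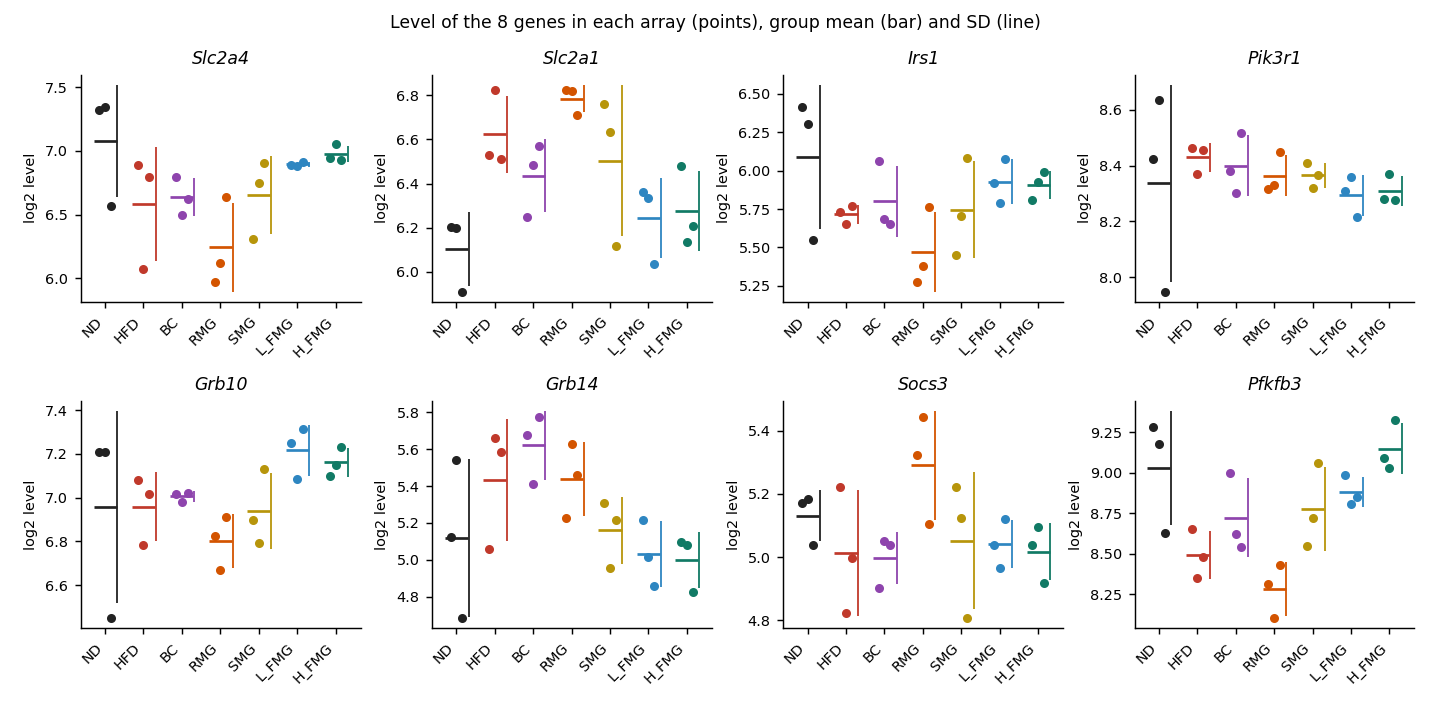
Log2 level of the 8 genes in each of the 21 arrays (points), with the group mean (bar) and the SD (line, n = 3); each panel has its own vertical axis. In the Slc2a1 panel all HFD, RMG and BC arrays lie above the ND arrays. In the Pfkfb3 panel the mean of H_FMG is highest and that of RMG lowest, and 1 ND array is the lowest of its group in all 8 panels.

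Irs1 encodes a docking protein that the insulin receptor phosphorylates. ND arrays read 6.42, 6.30 and 5.55, HFD arrays 5.73, 5.65 and 5.77, and RMG arrays 5.27, 5.38 and 5.76. The BC values were 6.06, 5.68 and 5.65, and the SMG values 5.45, 5.70 and 6.08. L_FMG gave 5.92, 5.79 and 6.08, and H_FMG 5.81, 5.93 and 5.99. The first pair of ND arrays lay above every array of the other groups, while ND 9 lay inside the RMG range. Irs1 fell by 0.62 ± 0.19 (SE) in RMG relative to ND, to a level 1.54-fold lower (limma adjusted p = 0.0324). In HFD the change was -0.37 ± 0.19 and did not pass (limma adjusted p = 0.226). A second, dim Irs1 probe gave -0.32 ± 0.15 in RMG (limma adjusted p = 0.165).

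Pik3r1, the regulatory subunit of phosphatidylinositol 3-kinase, had the smallest spread of group means of the 8 genes, 0.14 between L_FMG and HFD. Its arrays ran from 7.95 to 8.64, and both extremes were ND arrays. The HFD arrays read 8.46, 8.37 and 8.46 and the H_FMG arrays 8.28, 8.37 and 8.28. Relative to ND the HFD change was 0.093 ± 0.12 (SE), with a 95% interval from -0.16 to 0.34, which spans 0. No comparison called Pik3r1.

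Among the inhibitors, Grb10 and Grb14 encode related adaptors that bind the activated insulin receptor, and Socs3 is induced by cytokines and acts on receptors and their substrates. Grb10 read 7.21, 7.21 and 6.45 in ND, 7.08, 6.78 and 7.02 in HFD and 6.82, 6.67 and 6.91 in RMG. In the fermented-grain groups it read 7.25, 7.08 and 7.31 at the low dose and 7.10, 7.15 and 7.23 at the high dose. Every array of either fermented-grain group lay above every HFD array. At the low dose the margin was narrow, 7.085 against 7.079. The change was 0.26 ± 0.15 (SE) in L_FMG and 0.20 ± 0.15 in H_FMG relative to HFD, and neither passed (limma adjusted p = 0.635 and 0.588). BC ran from 6.98 to 7.02 and SMG from 6.79 to 7.13, so both overlapped with HFD.

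Grb14 had its highest group mean in BC, where it read 5.68, 5.41 and 5.77. It read 5.13, 5.54 and 4.68 in ND, 5.06, 5.66 and 5.58 in HFD and 5.23, 5.63 and 5.46 in RMG. The values were 5.31, 4.95 and 5.21 in SMG, 5.21, 5.02 and 4.86 in L_FMG and 5.10, 5.08 and 4.82 in H_FMG. All BC arrays lay above all arrays of SMG and of both fermented-grain groups. The difference between L_FMG and BC, -0.59 ± 0.19 (SE), was the largest of the 8 genes in that comparison and did not pass (limma adjusted p = 0.999). Grb14 was likewise the gene with the smallest p in BC relative to ND, at 0.50 ± 0.19 (limma adjusted p = 0.209).

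Socs3 varied least between single arrays, from 4.81 in SMG 12 to 5.44 in RMG 9. RMG read 5.32, 5.44 and 5.10 and had the highest mean, HFD read 5.22, 4.82 and 4.996, and the groups overlapped. Its change in RMG relative to HFD, 0.28 ± 0.12 (SE), had the smallest p of the 8 genes in that comparison and did not pass (limma adjusted p = 0.999833). No comparison called Grb10, Grb14 or Socs3.

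Pfkfb3 encodes an enzyme that makes and breaks down the allosteric activator of phosphofructokinase, the main control point of glycolysis. It read 9.28, 9.18 and 8.63 in ND, 8.65, 8.35 and 8.48 in HFD and 8.31, 8.10 and 8.43 in RMG. BC gave 9.001, 8.62 and 8.54, and SMG 8.55, 8.72 and 9.06. The low dose of fermented grain gave 8.99, 8.81 and 8.85, and the high dose 9.09, 9.03 and 9.33. All 6 fermented-grain arrays lay above all 6 arrays of HFD and RMG. HFD and ND overlapped, since HFD 4 lay just above ND 9, and RMG lay wholly below ND. Pfkfb3 fell by 0.54 ± 0.16 (SE) in HFD relative to ND, to a level 1.45-fold lower (limma adjusted p = 0.0436), and by 0.75 ± 0.16 in RMG, 1.68-fold lower (limma adjusted p = 0.00349).

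In HFD relative to ND 2 of the 8 genes were thus called, Slc2a1 higher and Pfkfb3 lower, where 8.63% of all genes were called. Both calls sit close to the threshold. Slc2a1 was not called without ND 8 (limma adjusted p = 0.0532), ND 9 (0.117), HFD 4 (0.0561), HFD 6 (0.175) or HFD 7 (0.0567), nor after quantile normalization (0.0809). Pfkfb3 was not called without ND 6 (limma adjusted p = 0.136), ND 8 (0.127), HFD 4 (0.0522), HFD 6 (0.175) or HFD 7 (0.109). Without ND 9, 3 genes were called instead: Slc2a4 (-0.75 ± 0.21 SE, limma adjusted p = 0.0292), Irs1 and Pfkfb3. Over all 16248 genes that setting called 1362, against 1403 with every array kept. With ND 9 and HFD 6 both left out, a choice made after seeing the data, Pfkfb3 alone was called, and Slc2a1 stood at 0.32 ± 0.17 (limma adjusted p = 0.358). Slc2a1 was the only one of the 8 genes whose HFD and ND arrays did not overlap, as in 28.7% of all genes.

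In RMG relative to ND 4 of the 8 were called, Slc2a1 higher and Slc2a4, Irs1 and Pfkfb3 lower, where 14.8% of all genes were called. Slc2a1 and Pfkfb3 were also the 2 genes whose arrays did not overlap, as in 29.5% of all genes. Pfkfb3 passed under each of the 15 other settings tried, and Slc2a1 under each except its dim second probe. Slc2a4 did not pass without ND 6 (limma adjusted p = 0.0507), ND 8 (0.0596) or RMG 4 (0.0692). Irs1 did not pass without ND 6 (limma adjusted p = 0.137), ND 8 (0.122), RMG 4 (0.137) or RMG 9 (0.0944), nor after median centring (0.0710). The HFD and RMG comparisons share the 3 ND arrays. RMG and HFD were not separated: 0 of the 8 genes and 0% of all genes were called by limma between them, with 458 genes at an unadjusted p under 0.05.

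Relative to ND the other supplemented groups gave no call among the 8 genes. SMG had 5.83% of all genes called, and its smallest p was that of Slc2a1 at 0.40 ± 0.15 (SE, limma adjusted p = 0.120). BC had 0.111% called. L_FMG and H_FMG each had 0.00615% called, a single gene. These counts over all genes moved with single arrays. Without ND 9 they were 372 genes in BC (18 with it), 275 in L_FMG and 22 in H_FMG, while the 8 genes still gave no call. BC had 1 without ND 8, 3 without BC 4, 6 without BC 7 or BC 11 and 7 without ND 6. L_FMG had 10 without ND 6 and 6 without L_FMG 10, and H_FMG had 4 without ND 6. The smallest p among the 8 was that of Grb10 in both, at 0.26 ± 0.15 in L_FMG (limma adjusted p = 0.473) and 0.20 ± 0.15 in H_FMG (limma adjusted p = 0.735). For Slc2a1 the change relative to ND was 0.14 ± 0.15 in L_FMG and 0.17 ± 0.15 in H_FMG. For Pfkfb3 it was -0.15 ± 0.16 in L_FMG and 0.12 ± 0.16 in H_FMG. Whether these changes differ from that of HFD is the direct comparison with HFD.

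**Figure D2:**
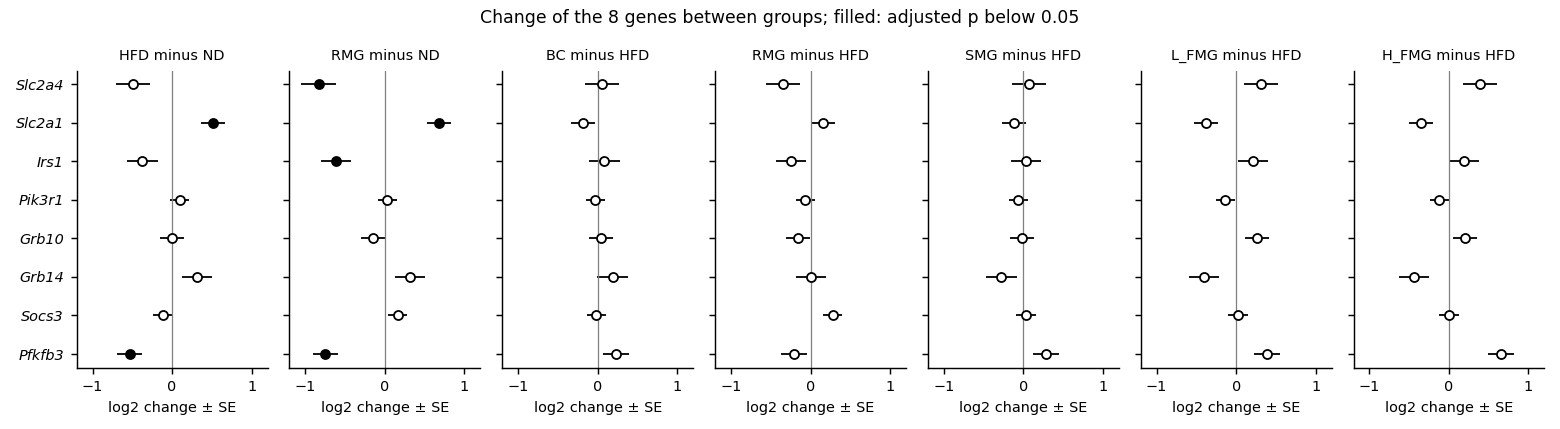
Log2 change ± SE of the 8 genes in 7 of the comparisons (points and lines); filled points had an adjusted p under 0.05. Slc2a1 and Pfkfb3 are filled in HFD minus ND, 4 genes are filled in RMG minus ND, and no gene is filled in the comparisons with HFD.

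Direct comparison with HFD called none of the 8 genes in any of the 5 supplemented groups. Limma called 0% of all genes in BC, SMG and L_FMG, with 841, 300 and 1407 genes at an unadjusted p under 0.05, and 0.00615% in H_FMG, a single gene, with 2350 at an unadjusted p under 0.05. Pfkfb3 in H_FMG came nearest, at 0.65 ± 0.16 (SE) with a 95% interval from 0.32 to 0.99, a level 1.57-fold higher (limma adjusted p = 0.130). Only 1.82% of genes had a larger change in that comparison. In L_FMG its change was 0.39 ± 0.16 (limma adjusted p = 0.543), in SMG 0.28 ± 0.16 and in BC 0.23 ± 0.16. Slc2a1 had the smallest p in L_FMG, at -0.38 ± 0.15 (limma adjusted p = 0.520), and stood at -0.35 ± 0.15 in H_FMG (limma adjusted p = 0.291). Grb14 gave -0.40 ± 0.19 in L_FMG and -0.43 ± 0.19 in H_FMG. These comparisons share the 3 HFD arrays, so their values are not independent of each other.

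The arrays of 5 of the 8 genes did not overlap between L_FMG and HFD, where 17.4% of all genes did not, and the number was also 5 between H_FMG and HFD, where 22.1% did not. Slc2a1, which lay below HFD, and Irs1, Grb10 and Pfkfb3, which lay above it, were in both sets. Pik3r1, below HFD, completed the low-dose set and Slc2a4, above it, the high-dose set. Some low-dose gaps were narrow. The lowest L_FMG and highest HFD values were 7.085 and 7.079 for Grb10 and 5.787 and 5.769 for Irs1. For Pik3r1 the highest L_FMG value was 8.360 and the lowest HFD value 8.369. The gaps of Slc2a1 and Pfkfb3 were wider. Several of the 8 genes moved together and both sets used the same HFD arrays, so these are not counts of independent genes. In the mean of the 5 supplemented groups relative to HFD, 0 of the 8 genes and 0% of all genes were called by limma, with 708 genes at an unadjusted p under 0.05. The smallest p was that of Pfkfb3, 0.27 ± 0.13 (SE, limma adjusted p = 0.953).

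Between the doses of fermented grain 0 of the 8 genes were called, as were 0% of all genes by limma, with 636 at an unadjusted p under 0.05. Pfkfb3 differed most, by 0.27 ± 0.16 (SE) with a 95% interval from -0.070 to 0.60, and did not pass. The high-dose arrays lay above the low-dose arrays without overlap for 2 of the 8 genes, Slc2a4 and Pfkfb3, and 8.07% of all genes did not overlap in this comparison. At the equal dose of 0.3%, fermented and steamed grain gave 0 calls among the 8 and 0% among all genes in limma, with 886 at an unadjusted p under 0.05. There the smallest p was that of Grb10, at 0.28 ± 0.15 (limma adjusted p = 0.844). L_FMG relative to BC likewise gave 0 calls among the 8 and 0% among all genes in limma, with 666 at an unadjusted p under 0.05. The intervals are wide, so these comparisons do not show that the diets act alike on these genes.

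The groups with the highest and lowest Pfkfb3 were compared after their values had been seen. The p-values below do not allow for that choice among 21 pairs, so that of Pfkfb3 is too small. H_FMG relative to RMG called 3 of the 8 genes, where 7.19% of all genes were called: Pfkfb3 rose by 0.87 ± 0.16 (SE), 1.82-fold (limma adjusted p = 0.00738). Slc2a4 was higher by 0.73 ± 0.21 and Slc2a1 fell by 0.51 ± 0.15 (limma adjusted p = 0.0435 for both). The arrays of 7 of the 8 genes, all but Pik3r1, did not overlap between the groups, as in 25.7% of all genes. Pfkfb3 was no longer called without H_FMG 8 (limma adjusted p = 0.0729). The Slc2a4 and Slc2a1 calls were each lost without RMG 4, RMG 9, H_FMG 6 or H_FMG 8, and after median centring (limma adjusted p = 0.0698 and 0.0558). Slc2a4 was also lost without H_FMG 3 (limma adjusted p = 0.0642). Slc2a1 was also lost without RMG 10 (limma adjusted p = 0.0783) and with the replicate number as a block (0.0581), and its dim second probe gave -0.18 ± 0.12 (limma adjusted p = 0.478). L_FMG relative to RMG called 0 of the 8 and 0.314% of all genes (51, but 0 without L_FMG 10 and 1 without RMG 4 or RMG 9), with Pfkfb3 at 0.60 ± 0.16 (limma adjusted p = 0.0773). Of all 21 pairs of groups, 3 had any of the 8 genes called: HFD and RMG each relative to ND, and H_FMG relative to RMG.

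A test of any difference among the groups gave the same 2 genes as the diet comparison. The limma F test over all 7 groups called Slc2a1 (adjusted p = 0.0472) and Pfkfb3 (adjusted p = 0.0147), where 6.47% of all genes were called. Over the 6 high-fat groups it called 0 of the 8, where 0.0492% of all genes were called, and Pfkfb3 came nearest (limma adjusted p = 0.0808). Without SMG 12 this test called 2 of the 8, Slc2a1 and Pfkfb3, and 657 genes in place of 8. In order of group means Slc2a4 ran from ND through H_FMG, L_FMG, SMG, BC and HFD down to RMG. Pfkfb3 ran from H_FMG through ND, L_FMG, SMG, BC and HFD to RMG. Slc2a1 ran the other way, from RMG through HFD, SMG, BC, H_FMG and L_FMG to ND. Irs1 ran from ND through L_FMG, H_FMG, BC, SMG and HFD to RMG. In none of the 8 genes did groups next to each other in the order differ past the threshold.

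Levels of several of the 8 genes moved together from array to array. Over the 21 arrays Slc2a4 correlated with Irs1 at Pearson r = 0.88 and Spearman rho = 0.90, and with Pfkfb3 at r = 0.86 and rho = 0.90. Each of these had a permutation p of 1e-05, the smallest that 100000 permutations can give, and adjusted values of 9.33e-05 for r and 5.6e-05 for rho over the 28 pairs of genes. Without HFD 6 and RMG 4, the arrays farthest from the Slc2a4 median, r was 0.90 and 0.84. After group means were removed it was 0.80 and 0.74, pooled over the groups. ND 9, the lowest of its group for all 8 genes, was kept in these values. The relation did not hold in every group. In H_FMG the array with the highest Slc2a4, H_FMG 6 at 7.05, had the lowest Pfkfb3, 9.03. Slc2a4 and Slc2a1 were related inversely, at r = -0.71 and rho = -0.72 (permutation p = 0.00026 and 0.00034, adjusted 0.00104 and 0.00106). Their r was -0.60 without HFD 6 and RMG 4 and -0.33 after group means were removed. Of the 28 pairs 11 had an adjusted permutation p for r under 0.05, 8 positive and 3 negative. The permutations moved arrays freely across the groups, so all of these p-values also take in differences between group means. No p was computed after group means were removed. Arrays share their RNA quality and cell makeup across all genes, and high correlations were common: 6.96% of all genes were at least as strongly correlated with Slc2a4 as Slc2a1 was, but 0.246% as strongly as Irs1 and 0.708% as strongly as Pfkfb3.

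**Figure D3:**
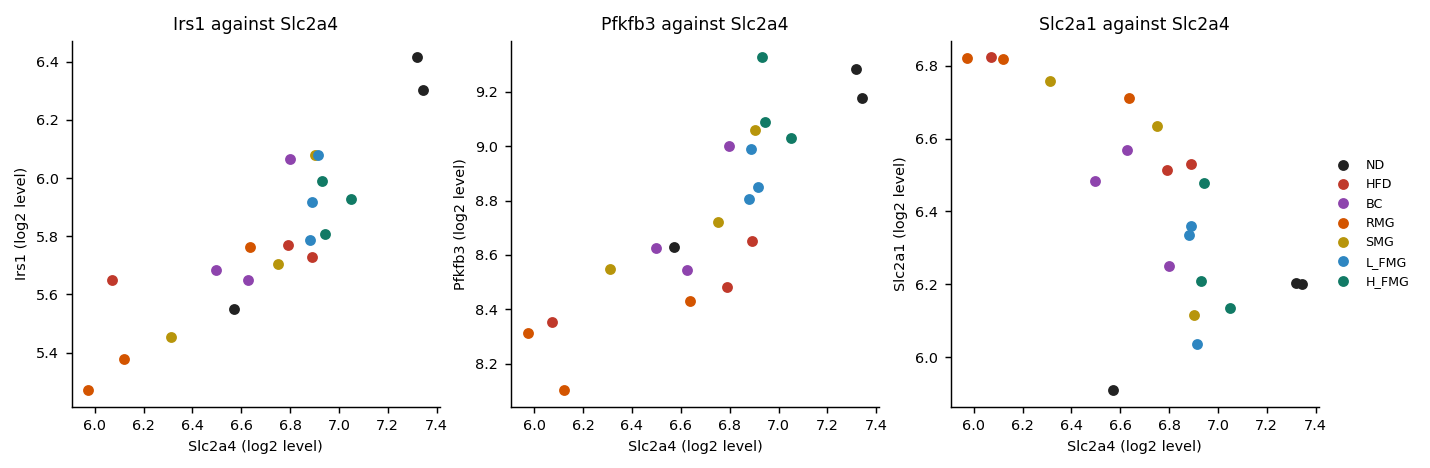
Log2 level of Irs1 (left), Pfkfb3 (middle) and Slc2a1 (right) against that of Slc2a4, 1 point per array and 1 colour per group. Irs1 and Pfkfb3 rise with Slc2a4 (r = 0.88 and 0.86) and Slc2a1 falls with it (r = -0.71), and the ND array with Slc2a4 near 6.57 lies apart at the bottom of the right panel.

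The genes most like each of the 8 over the 21 arrays, by Pearson r, were as follows. For Slc2a4 they were Cdo1, Car3 and Steap4, each at r = 0.93, of which Cdo1 oxidises cysteine and Car3 is a carbonic anhydrase abundant in fat. Slc2a1 was most like Mad2l1 (r = 0.97), a spindle checkpoint gene, Cap1 (0.96) and Vps39 (0.95). Irs1 was nearest to Gnai1 (0.94), Gpat3 (0.93) and Lrrc58 (0.93), and Pfkfb3 to Cachd1 (0.96), Mfng (0.96) and Cluh (0.95). The nearest to Grb10 was Asah2 (0.90), to Grb14 Lipf (0.86), to Pik3r1 Sys1 (0.85) and to Socs3 Gpat2 (0.80). The choice of the closest among 16248 genes makes such values high, and they describe these arrays alone.

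Around the 8 genes, 116 further genes of the pathway were measured, from lists of 184 genes chosen with earlier results of these data known. The other 60 genes, which include the insulin receptor gene Insr, Irs2, Akt2 and Hk2, were not analysed here. In HFD relative to ND 18 of the 116 were called higher and 0 lower, beside 1063 higher and 340 lower over all genes. Their median change was 0.062, against -0.041 over all genes. This direction leaned on ND 9 and on the scaling: without ND 9 the calls were 14 higher and 11 lower, and after quantile normalization 9 higher and 5 lower. Without HFD 6 only 4 were higher and 0 lower.

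Over all genes 8.63% were called in HFD relative to ND, and the 2 of 34 glycolysis genes below do not exceed that share. Among 9 measured genes of the receptor and its substrates none was called in HFD. Of 20 genes of phosphatidylinositol 3-kinase and Akt 5 rose. These were the leukocyte catalytic subunits Pik3cg (0.89 ± 0.19, SE) and Pik3cd (0.64 ± 0.17), the kinase Akt1 (0.37 ± 0.10), the transcription factor Foxo3 (0.41 ± 0.12) and Tsc1 (0.38 ± 0.12), which restrains growth signalling. Of 25 inhibitors 6 rose, with Inpp5d, a lipid phosphatase of blood cells, at 1.15 ± 0.19, Pid1 at 0.68 ± 0.11, Igfbp3, a binding protein of insulin-like growth factors, at 0.68 ± 0.14, and Ptpn1, a phosphatase of the insulin receptor, at 0.46 ± 0.12. Of 28 transporter and vesicle genes 5 rose, among them Stxbp3 (0.77 ± 0.12) and Snap23 (0.56 ± 0.15), which serve vesicle fusion, and Tbc1d1 (0.44 ± 0.12), which restrains vesicle release. Of 34 genes of glycolysis and glucose use 2 rose, Hk3, a hexokinase of leukocytes, by 1.07 ± 0.25 and Gyg, the primer of glycogen, by 0.45 ± 0.14. All of these passed at a limma adjusted p under 0.05.

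In RMG relative to ND 23 of the 116 were called higher and 5 lower, beside 1665 higher and 736 lower over all genes, with a median of 0.044 against -0.037 over all genes. After quantile normalization 16 were higher and 19 lower, and without ND 9 18 were higher and 24 lower. The 5 lower genes were Gbe1 (-0.73 ± 0.17, SE), Pygb (-0.71 ± 0.17) and Pygl (-0.65 ± 0.17), which build and break down glycogen, Trib2 (-0.59 ± 0.14), a pseudokinase, and Sort1 (-0.48 ± 0.14), a sorting receptor of vesicles that hold the Slc2a4 product. The receptor and substrate list had 2 called, the adaptor gene Grb2 at 0.47 ± 0.12 and Cblb, a ubiquitin ligase, at 0.28 ± 0.082. Pik3cg (1.09 ± 0.19), Inpp5d (1.36 ± 0.19) and Hk3 (1.34 ± 0.25) again had large rises. In H_FMG relative to HFD 0 of the 116 were called by limma and 23 had an unadjusted p under 0.05, with a median change of -0.045 against 0.017 over all genes.

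**Figure D4:**
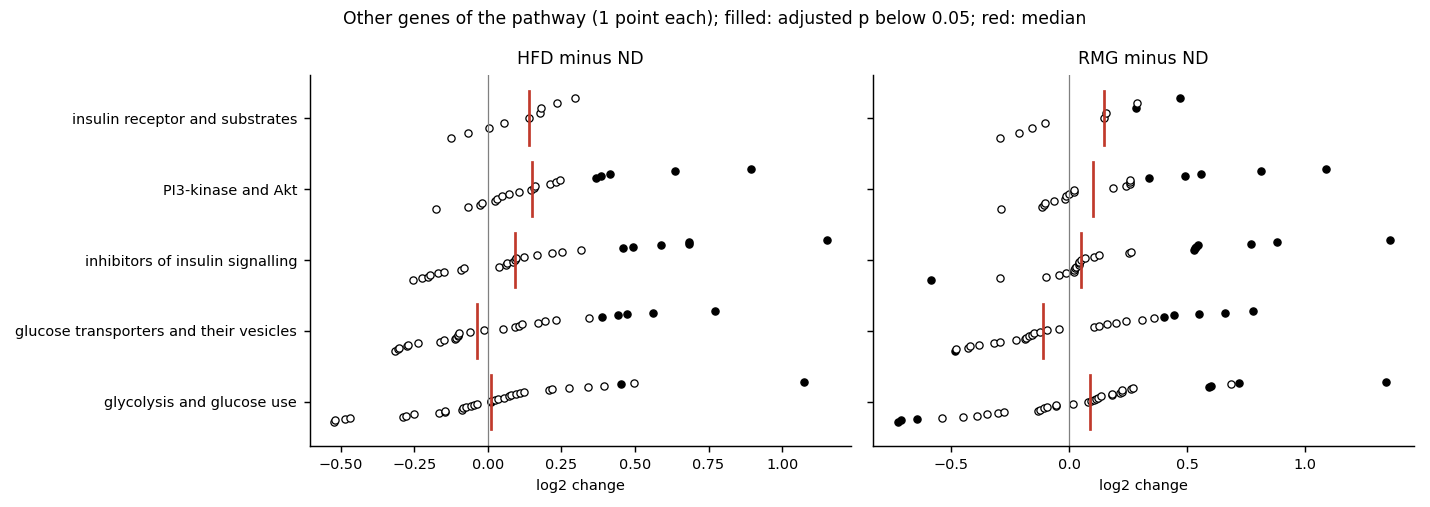
Log2 change of the 116 other measured pathway genes (1 point per gene) by list, in HFD minus ND and RMG minus ND; filled points had an adjusted p under 0.05 and the red bar is the list's median. Filled points lie to the right of 0 in HFD minus ND (18 of 18) and on both sides in RMG minus ND (23 higher and 5 lower).

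Marker genes of other cell types moved with the same comparisons. In whole tissue, fewer cells of a type and less RNA per cell cannot be told apart. Of 14 macrophage markers 13 were higher in HFD relative to ND, with a median change of 1.17, and 13 in RMG, with 1.33. The log2 of their summed signal ran from 12.1 to 12.9 in ND, 13.5 to 13.7 in HFD, 13.7 to 13.9 in RMG, 12.9 to 13.5 in BC, 12.9 to 13.8 in SMG, 12.99 to 13.3 in L_FMG and 12.4 to 13.2 in H_FMG. Of 9 adipocyte markers 5 were lower in HFD and 7 in RMG relative to ND, with medians of -0.52 and -0.65. Lep, 1 of the 9, went the other way. Its arrays read 11.20, 11.21 and 10.86 in ND, 11.48, 11.46 and 11.61 in HFD and 11.40, 11.45 and 11.52 in RMG. The summed signal of the 9 ran from 13.4 to 13.7 in ND, 13.3 to 13.5 in HFD, 13.2 to 13.3 in RMG, 13.4 to 13.7 in BC, 13.2 to 13.6 in SMG, 13.5 to 13.6 in L_FMG and 13.6 to 13.7 in H_FMG. ND 9 had the lowest adipocyte and the highest macrophage marker level of its group. Of 10 endothelial markers 1 was lower in HFD and 6 in RMG, with medians of -0.34 and -0.43. In HFD the count was 5 without ND 9 and 7 after quantile normalization, and every HFD array had a lower mean over the list than every ND array. Of 11 fibroblast and progenitor markers 5 were higher in HFD and 6 in RMG, and their mean level ran from 8.12 to 8.50 in ND, 8.89 to 8.97 in HFD and 9.04 to 9.11 in RMG. Of 8 mast cell markers 2 were higher in HFD and 4 in RMG. Of 4 T lymphocyte markers 1 was higher in each, and 1 was lower in RMG. Only Il7r of these 4 was bright, at a mean level of 8.11, while Cd8a, Cd2 and Cd8b1 had means from 3.64 to 4.43. Over all genes 8.63% were called in HFD and 14.8% in RMG, in either direction. The part of these markers in the changes of the 8 genes was not tested.

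**Figure D5:**
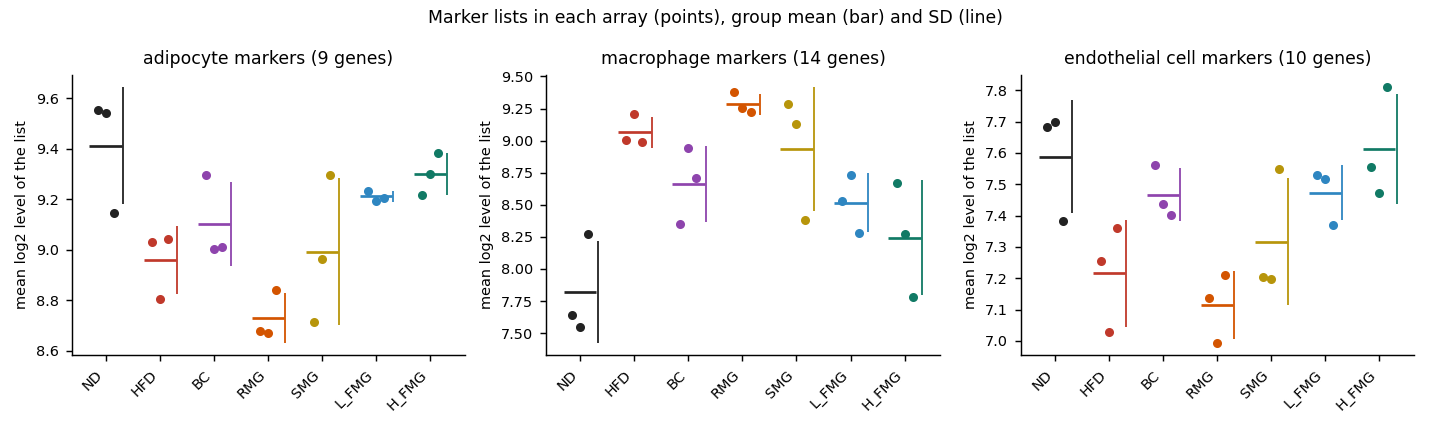
Mean log2 level of 9 adipocyte, 14 macrophage and 10 endothelial markers in each array (points), with the group mean (bar) and SD (line, n = 3). The mean of the macrophage markers lies higher in all HFD and RMG arrays than in all ND arrays. The mean of the adipocyte markers lies lower, though Lep, which is among them, was higher.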

How the data were processed

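The authors deposited log2 levels, 1 per probe and array; that the base is 2 was taken from the values, which ran from 0.844 to 12.7. No source used here gives their summarisation or normalization. Per the labels' protocols, Trizol-extracted RNA was labelled with a GeneChip whole-transcript kit. The table is held in part: of 24292 probes 24291 were complete, and chromosomes 7, 8, 9, X and Y had 18 measured genes in all. Of the complete probes 17067 had 1 symbol, 1139 several and 6085 none. The brightest probe stood for each of 668 genes with more than 1.

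No further normalization was applied. Limma 3.58.1 in R 4.3.3 fitted 1 coefficient per group over 21 arrays, with variances moderated along an intensity trend, and two-sided p-values were adjusted by Benjamini-Hochberg within each comparison. Named are all 8 genes, the smallest p where none passed, up to 5 called genes per list and direction, and the 3 most correlated genes. The 8 genes and all lists were chosen with earlier results of these data known. L_FMG and H_FMG relative to RMG were added after seeing the data. Alternatives were quantile normalization, median centring, no dim genes, no trend, every probe, array weights, a replicate block, only 2 groups and leaving out each array. Pairs of genes were tested with 100000 permutations of arrays, made without regard to group. The fit was tested on simulated data. No scan date or batch was given, so batches could not be checked.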

Additional observations from a re-analysis of the deposited data

How the results depend on the processing

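The counts below are of the 8 genes called. They are to be read beside the counts over all genes, which also moved and are given for many of these settings at the end of this section. For HFD relative to ND the 2 calls became 1 under quantile normalization (Pfkfb3), median centring, no intensity trend, every probe tested (Slc2a1 in these 3) and with both arrays that stood apart left out (Pfkfb3), 4 with array weights and 0 with only the arrays of the 2 groups; leaving out 1 array gave 0 to 3. RMG relative to ND went from 4 to 2 with only the 2 groups (Slc2a1 and Pfkfb3), and leaving out 1 array gave 2 to 5. SMG relative to ND went from 0 to 4 with array weights and to 0 to 1 with 1 array left out, and H_FMG relative to HFD from 0 to 1 with array weights (Pfkfb3). For H_FMG relative to RMG the 3 calls became 1 under median centring, no intensity trend and every probe tested, 5 with array weights, and 0 to 2 with 1 array left out. L_FMG relative to RMG went from 0 to 1 under quantile normalization and to 3 with array weights or only the 2 groups. The F test over 7 groups gave 1 without trend or with every probe, 5 with array weights and 0 to 4 with 1 array left out. The F test over the 6 high-fat groups gave 1 under quantile normalization, 3 with array weights and 0 to 2 with 1 array left out. The remaining comparisons had 0 calls under the settings tried. Over 136 changes of single genes 122 of 2042 values under other settings had another sign than the reported one. Of changes with an unadjusted p under 0.05 this held for 1: the dim second Slc2a1 probe gave -0.044 in SMG relative to ND. The called changes kept their sign in the settings tried.

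A replicate block on the array number left 1 call in HFD relative to ND (Slc2a1; Pfkfb3 at limma adjusted p = 0.0606) and 1 in the 7-group F test (Pfkfb3), and it ended the Slc2a1 call in H_FMG relative to RMG (limma adjusted p = 0.0581). Same-numbered arrays of different groups deviated together at r from -0.30 to 0.18, above 0.1 in 2 of 18 pairs. No pairing by number showed in these values, though 18 pairs are too few to settle it.

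Over all genes, HFD relative to ND had 1403 calls, 368 without HFD 6, 826 without HFD 7, 774 with only the 2 groups, 611 with both arrays left out and 2432 with array weights. RMG relative to ND had 2401, 1412 with only the 2 groups, 1585 without RMG 4 and 3618 with array weights. SMG relative to ND had 948, 507 under quantile normalization, 292 without ND 8, 3 without SMG 5, 11 without SMG 8, 1563 without SMG 12, 0 with only the 2 groups and 2913 with array weights. H_FMG relative to RMG had 1169, 32 without H_FMG 8, 136 without RMG 4, 395 without RMG 9 or H_FMG 6, 575 without RMG 10 and 2349 with array weights. H_FMG relative to HFD had 1, 257 without H_FMG 3 and 566 with array weights. BC, L_FMG and H_FMG relative to ND had 18, 1 and 1, and 629, 460 and 29 with array weights. L_FMG relative to RMG had 51, 179 under quantile normalization, 7 with no trend, 717 with only the 2 groups and 948 with array weights, and 0 to 11 with 1 array left out. The F test over the 6 high-fat groups had 8, 56 under quantile normalization, 0 under median centring or with no trend, 1436 with array weights, 657 without SMG 12, 150 without H_FMG 3, 67 without SMG 5 and 0 without each HFD or RMG array in turn. Over 7 groups it had 1051, 567 without ND 8, 572 without RMG 4, 665 without RMG 9, 679 without RMG 10 and 2695 with array weights. Median centring moved the median HFD change of all genes from -0.041 to 0.064. With 3 arrays per group, 1 array can decide a call near the threshold, and array weights, which gave ND 9 a weight of 0.208, gave more calls than the equal-weight fit.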

Other observations

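Pathway genes outside the comparisons above were described in the same way, from the same lists. In SMG relative to ND 12 of the 116 other pathway genes were called higher and 0 lower by limma, beside 770 higher and 178 lower over all genes, with Inpp5d at 1.06 ± 0.19 (SE), Hk3 at 0.92 ± 0.25, Pid1 at 0.67 ± 0.11, Pik3cg at 0.65 ± 0.19, Foxo3 at 0.47 ± 0.12 and Akt1 at 0.39 ± 0.10. Without SMG 5 or without SMG 8 none of the 116 was called, and after quantile normalization 2 were higher and 3 lower. In BC relative to ND 1 was called, Igfbp3 at 0.97 ± 0.14 (limma adjusted p = 0.00839).

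In H_FMG relative to RMG, a comparison chosen after seeing the data, 5 of the 116 were higher and 9 lower, beside 370 higher and 799 lower over all genes. Higher were Pygb, a glycogen phosphorylase, by 0.69 ± 0.17 (SE), Trib2 by 0.66 ± 0.14, Trarg1, a protein of the vesicles that carry the Slc2a4 product, by 0.63 ± 0.18, the insulin-restrained transcription factor gene Foxo1 by 0.52 ± 0.13, and Mlxipl, which encodes a glucose-sensing transcription factor, by 0.48 ± 0.10. Lower were Inpp5d (-0.99 ± 0.19), Hk3 (-0.91 ± 0.25), Pik3cg (-0.86 ± 0.19), Ptprs (-0.69 ± 0.16), Stxbp3 (-0.58 ± 0.12), Pgm2 (-0.57 ± 0.13), Pid1 (-0.48 ± 0.11), Gyg (-0.48 ± 0.14) and Lrp1 (-0.48 ± 0.099). Without RMG 4 there were 0 higher and 1 lower, and without H_FMG 8 1 higher and 0 lower. In the same comparison 11 of 14 macrophage markers were lower and 5 of 9 adipocyte markers higher by limma, and their part in these changes was not tested.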
